A study of Mus musculus with 2 samples.

Results

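Tight clusters of open chromatin were examined in 1 lymphoma, T6, of the Eμ-myc mouse, a model whose transgene places Myc under the Eμ enhancer of the heavy chain immunoglobulin gene, which is active in B cells. The members were chosen by the measured positions of the sites: a tight cluster was a run of 10 or more DNaseI sites on chromosomes 1 to 19 in which no gap, taken from a site's end to the following start, exceeded 5 kb. The starts of chromosome 9 (below 3.1 Mb) and chromosome 11 (below 3.2 Mb), which are prone to repeats, were left out. In all, 106 clusters with 1282 sites met the rule, out of 53593 sites in the list and 52670 on the autosomes so defined. The tumour was on the C57/Bl6 strain, was Arf-/- and Trp53+/+, and was untreated. Its cells were pressed from lymph nodes without purification, so other lymph node cells may be included. Of the 2 libraries of the series, the site list of the DNaseI library was used, and the tumour's input library was not analysed here. The list gives where each site lies and nothing on its signal, so depth is unknown and width was the one measure of size. With 1 library there was no test between conditions, the labelled B cell type could not be checked against its markers, and no p-value is given. Coordinates are mm9, counted from 1.

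DNaseI cuts where nucleosomes are absent or displaced, as at active promoters and enhancers. Single enhancers usually appear as isolated short stretches. Some genes that define a cell's identity are instead served by large domains in which many enhancers stand close together, known as super-enhancers or stretch enhancers, and locus control regions such as that of the beta globin genes are an older example. Such domains are normally found by joining nearby enhancers and ranking the joined regions by the signal of a coactivator or an acetylated histone. No such signal was available, so the clusters below are dense stretches of accessible sites and were not classed as super-enhancers. Gene positions and sequence of the mm9 build were not used here, so neither promoters nor target genes are named.

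The clusters were short, dense stretches spread over all 19 autosomes. Their median length was 25.9 kb (95% interval 24.5 to 28.1, n = 106), with quartiles of 21.7 and 31.2 kb and extremes of 13 and 57.9 kb. Clusters of 10 sites numbered 41, those of 11 sites 25, those of 12 sites 11, and 29 had 13 or more. All 106 together spanned 2.91 Mb, or 0.121% of the span of the autosomes between their outermost sites, and held 2.43% of the autosomal sites (2.30 to 2.57%). The median density was 4.40 sites per 10 kb (4.16 to 4.74), against 0.219 per 10 kb over the autosomes. Density was fixed in part by the rule, so this contrast is a description of what was selected. Intervals are from order statistics for medians and exact for counts and shares. They cover counting error only, and sites of one cluster are neighbours and not independent.

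**Figure D1:**
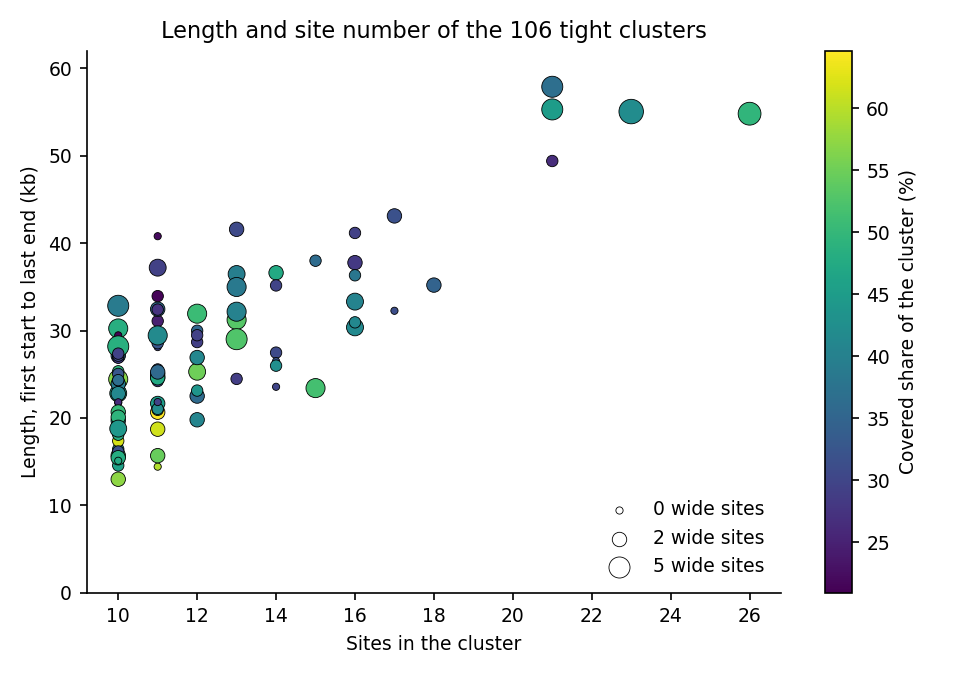
Each of the 106 clusters is a point, with its number of sites on the horizontal axis, its length in kb on the vertical axis, its covered share as colour and its number of sites over 1500 bp as size. Length runs from 13 to 57.9 kb, and the 5 clusters of 20 or more sites stand apart at 49.4 kb or longer.

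Sites took up well under the full length of most clusters. The covered share, the bases inside sites divided by the length from the first start to the last end, had a median of 38.8% (35.7 to 41.4%), quartiles of 30.97 and 47.3% and extremes of 20.9 and 64.6%. Sites covered 1.77% of the autosomal span, a contrast that the rule favours. Smaller groups joined at 5 kb had median covered shares no lower than the clusters. These were 57.96% with 2 or 3 sites (56.7 to 59.1%), 40.1% with 4 to 6 (39.2 to 40.96%) and 40.1% with 7 to 9 (38.4 to 40.99%). In 16 tight clusters the share reached 50%, and in 21 it was under 30%. The lowest 4, singled out after their values were seen, lay under 25%: chr9:43917217-43946665 with 20.9%, chr15:103162977-103196911 with 21.4%, chr11:116267133-116307921 with 22.2% and chr4:137269851-137300938 with 24.8%. More sites did not mean denser cover. Across the 106 clusters, which share 1 library, the number of sites went with the length (Pearson r = 0.79, Spearman rho = 0.65) but hardly with the covered share (r = -0.07, rho = -0.12). The covered share went with short gaps (r = -0.63 with the median gap, rho = -0.67) and with the width of the widest site (r = 0.54, rho = 0.56) more than with the median width of the sites (r = 0.30, rho = 0.29). Both gaps and widths enter the covered share by construction.

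The 5 clusters with 20 or more sites held 112 of the 1282 sites. First came chr3:95447672-95502471, with 26 sites in 54.8 kb and a covered share of 49.5%. Its 6 wide sites, meaning those over 1500 bp, measured 3226, 2206, 2190, 5248, 1734 and 2470 bp in order along the chromosome, and 9 other sites were narrow, meaning under 400 bp. The site of 5248 bp (95476095 to 95481342) was the 13th of the 26, close to the middle of the cluster at 0.57 of its length, and was the widest site of any tight cluster. Wide sites that followed one another were separated by 4506, 2480 and 3446 bp, so they did not form 1 continuous block.

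The cluster with the next most sites, chr3:87927496-87982540, had a different layout. It held 23 sites in 55.0 kb, with 42.1% covered and 7 wide sites, more than any other tight cluster. Its core was a nearly continuous block in which consecutive sites of 2801, 1750, 2437, 1520, 582, 2539 and 1427 bp were separated by gaps of 514, 88, 140, 126, 69 and 226 bp. Beside that block lay a sparse part with narrow sites of 307, 338, 268 and 270 bp, and the cluster closed with wide sites of 1736 and 1956 bp. Its widest site measured 2801 bp, only 1.10 times the second widest, so that no single site dominated.

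A further 3 clusters had 21 sites each. In chr1:88375470-88430758 (55.3 kb, 44.9% covered), 5 wide sites of 2510, 1731, 2973, 4838 and 2174 bp were spread over most of the length, and the widest was the 18th site, at 0.87 of the length. The longest of all the tight clusters, chr17:35322617-35380496 (57.9 kb, 36.8% covered), also had 5 wide sites, of which 3, measuring 1728, 2027 and 2727 bp, were its last 3 sites. The cluster at chr18:80882648-80932037 (49.4 kb) reached the same number of sites with 1 wide site of 1682 bp and 9 narrow ones, and 26.5% of it was covered. It lay apart from other open chromatin, with 31.3 kb to the site before it and 198 kb to the one after.

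Of the remaining clusters among the 10 with the most sites, chr5:149746923-149782120 had 18 sites in 35.2 kb with 34.6% covered, and chr13:51821137-51864245 had 17 sites in 43.1 kb with 31.8%. In chr16:11630136-11662394, 17 sites over 32.3 kb included no wide site at all, the widest being 1381 bp, and 9 were narrow. The last places were tied among 6 clusters of 16 sites. By genome order these went to chr3:88280200-88317960 and chr7:108489807-108530967, at 28.2 and 29.3% covered, and the 4 others had 38.1 to 41.4% covered. With ties settled that way, none of the 10 clusters with the most sites was among the 10 with the highest covered share, and 7 were among the 10 longest. The 10 longest also included chr7:139888550-139930126 (41.6 kb, 13 sites), chr11:116267133-116307921 (40.8 kb, 11 sites) and chr11:117162292-117200275 (37.98 kb, 15 sites). The second of these was the most loosely joined: it had neither a wide nor a narrow site, its widths ran from 492 to 1229 bp, and its median gap of 4110 bp was the longest median gap of any tight cluster.

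**Figure D2:**
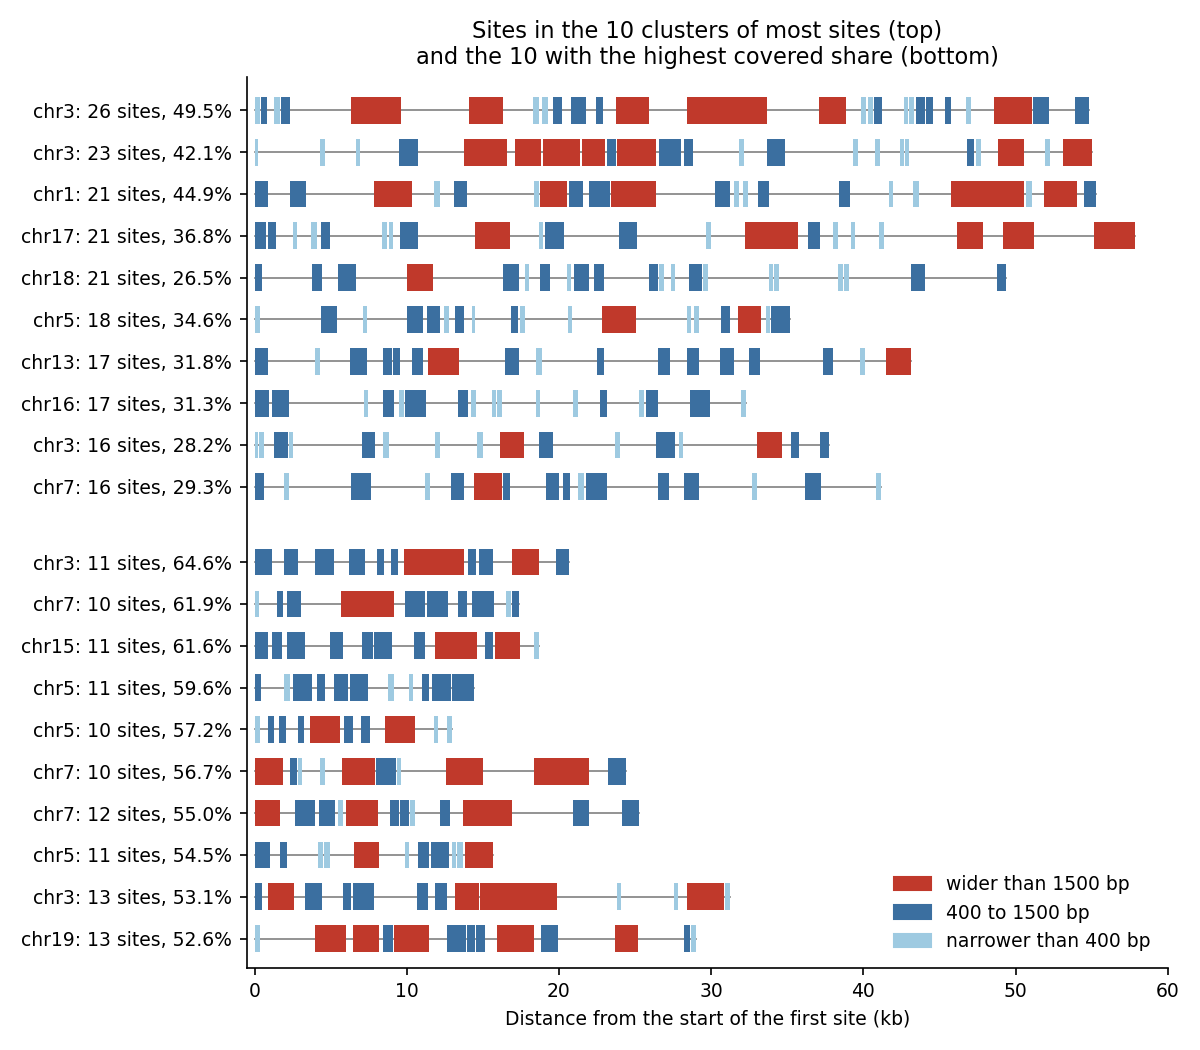
Each row is a cluster drawn to scale, with distance from the start of its first site in kb on the horizontal axis and its sites as boxes coloured by width. The upper 10 rows have the most sites (16 to 26) and the lower 10 the highest covered share (52.6 to 64.6%), which hold 10 to 13 sites.

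Most of the 10 clusters with the highest covered share were shorter than the median cluster, the exceptions being those of 31.2 kb on chromosome 3 and 29.01 kb on chromosome 19. The highest covered share, 64.6%, was in chr3:96350982-96371641, where 11 sites spanned 20.7 kb. No site there was narrow, and a site of 3976 bp, the seventh, was 2.21 times as wide as the next widest. It was followed by chr7:51774801-51792173 (61.9%, 10 sites, widest 3503 bp), chr15:74748699-74767415 (61.6%, 11 sites, widest 2794 bp) and chr5:122656787-122671217 (59.6%, 11 sites). The last had no wide site, and its widest of 1465 bp stood at the end of the cluster, so a high covered share did not need a wide site. The shortest tight cluster, chr5:113538920-113551913, packed 10 sites into 13 kb with 57.2% covered. It held 2 nearly equal wide sites of 1988 and 1965 bp, and its longest inner gap was 1218 bp. Next came chr7:25668536-25692960 (56.7%, 4 wide sites), chr7:108598596-108623885 (55.0%, 3 wide sites), chr5:143656354-143672042 (54.5%, 2 wide sites), chr3:122092996-122124211 (53.1%, 4 wide sites) and chr19:29551626-29580637 (52.6%, 5 wide sites).

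In 51 of the 106 clusters the widest site was accompanied by at least 1 more wide site, and 55 had 1 wide site or none. The median width of the widest site was 1986 bp (1868 to 2195), with quartiles of 1672 and 2621 bp and extremes of 756 and 5248 bp. It exceeded the second widest by a median factor of 1.36 (1.21 to 1.48) and made up a median of 20.2% of the covered bases (19.5 to 23.2%). The factor was at least 2 in 12 clusters and under 1.2 in 42. Its highest value, 3.20, was in chr8:96877799-96903135, where the last of 10 sites measured 4586 bp and the next widest 1431 bp.

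A widest site of over 4000 bp was present in 6 clusters. Beside the sites of 5248 and 4838 bp already described, these were 5038 bp in chr3:122092996-122124211, 4586 bp in the chromosome 8 cluster, 4255 bp in chr11:77972363-78008827 and 4200 bp in chr3:87302172-87334100. They occupied varied places. The sites of 5038 and 4255 bp were each the ninth of 13 and lay near the middle (0.56 and 0.52 of the length). The former was separated by 52 bp from a wide neighbour of 1603 bp. The site of 4200 bp, by contrast, opened its cluster. The 10 widest were completed by the site of 3976 bp and by 3 others: 3747 bp in chr9:57471718-57508035, 3718 bp in chr8:86704604-86734844 and 3627 bp in chr6:145790591-145815585. In the cluster at 86704604 the widest site and its neighbour of 3332 bp closed the row together, with a gap of 2974 bp between them.

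Wide sites were somewhat more frequent inside tight clusters than elsewhere. Of the 1282 cluster sites 190 were wide, or 14.8% (12.9 to 16.9%), against 11.3% of the 51388 other sites (11.04 to 11.6%) and 11.4% of all autosomal sites kept. Those over 2500 bp were 2.96% of cluster sites (2.11 to 4.05%), against 1.56% of the others (1.46 to 1.68%) and 1.6% of all. Because gaps run from the end of one site to the start of the next, a wide site also shortens the gaps beside it, and width is therefore not fully independent of the rule. At the other end of the scale, narrow sites made up 30.03% of cluster sites (27.5 to 32.6%) and 30.5% of the others (30.1 to 30.9%), the same 30.5% as over all autosomal sites kept. The median widths, 673 bp (627 to 718) and 663 bp (658 to 668), lay within counting error. Wide sites accounted for 36.7% of the covered bases of clusters and 28.4% of those outside. Of the 842 autosomal sites over 2500 bp, 38 lay in tight clusters, which is 4.51% of them (3.21 to 6.14%), against 2.43% of all autosomal sites. The higher share of wide sites in clusters was within counting error at a joining distance of 2500 bp (12.8%, 8.01 to 19.1%, against 11.4% elsewhere) and with a minimum of 15 sites (15.2%, 11.2 to 19.8%, against 11.4%).

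The excess of wide sites was not particular to groups of 10 or more. Joined at the same distance, sites on their own were wide in 12.6% of 17900 cases (12.1 to 13.1%). In groups of 2 or 3 the share was lowest, at 9.66% (9.27 to 10.1%). It was 11.7% in groups of 4 to 6 (11.04 to 12.3%), 14.4% in groups of 7 to 9 (13.1 to 15.9%) and 14.8% in the tight clusters, so the last pair did not differ beyond counting error. Narrow sites showed the opposite course over the first classes, from 27.96% of single sites (27.3 to 28.6%) to 32.9% in groups of 2 or 3 (32.3 to 33.5%), then 30.4% (29.5 to 31.3%), 28.6% (26.8 to 30.3%) and 30.03%.

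**Figure D3:**
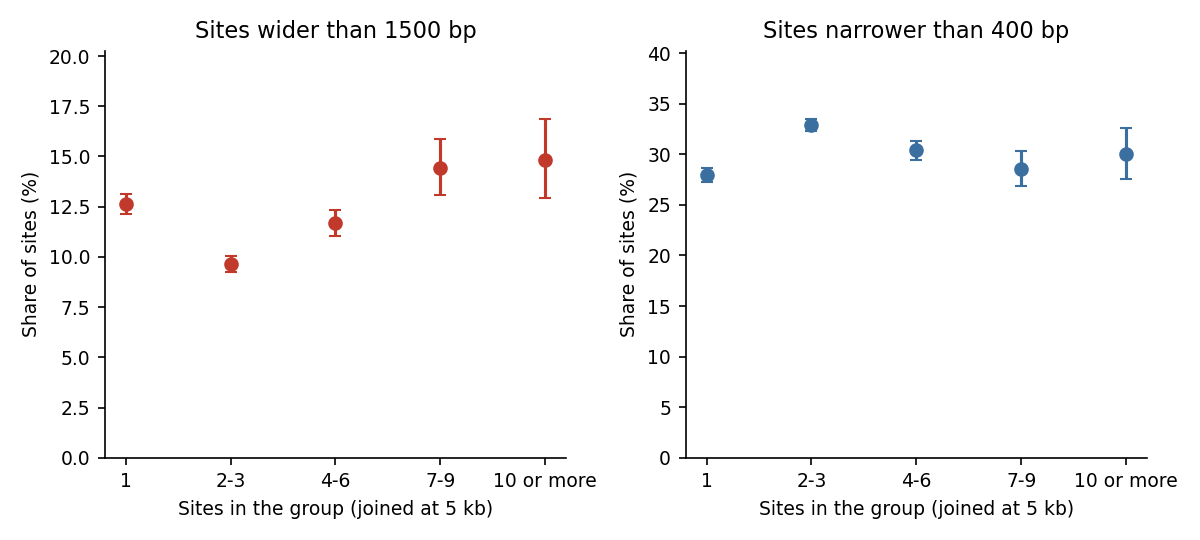
Points are the share of sites over 1500 bp (left) and under 400 bp (right), in %, by the number of sites in the group after joining at 5 kb, with exact 95% intervals as bars. Wide sites are least frequent in groups of 2 or 3, at 9.66%, and reach 14.4 and 14.8% in the largest 2 classes.

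Groups on both sides of the limit of 10 sites had overlapping intervals. The 59 groups of 9 sites, just outside, had a median length of 20.04 kb (18.6 to 21.2), a median covered share of 38.2% (34.9 to 41.5%) and 14.9% wide sites. Just inside, the 41 clusters of 10 had 21.8 kb (18.8 to 24.7), 41.4% (34.9 to 47.3%) and 15.9%. The inner gaps of clusters had a median of 1044 bp (938 to 1145), against 1122 bp (1032 to 1230) in groups of 7 to 9 and 1084 bp (1026 to 1131) in groups of 4 to 6. Groups of 2 or 3 had shorter gaps than the clusters, with a median of 836 bp (781 to 887). The longest inner gap was 4948 bp, and in 42 clusters the longest gap exceeded 4500 bp. On the outside, the shortest gap to the next site was 5050 bp, and 56 clusters had a neighbour within 7500 bp on at least 1 side. The joining distance set all 212 cluster ends, and the 66 with such a neighbour would already move at 7500 bp.

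The number of wide sites differed among clusters, and whether it varied more than counting and cluster size would give was not tested. No wide site was present in 16 clusters, 39 had 1, 27 had 2, 9 had 3, and the 15 with 4 or more held 70 of the 190. Covered share was higher with more wide sites, in part by construction, with medians of 30.4% without a wide site (29.1 to 35.7%), 32.6% with 1, 41.4% with 2 or 3 and 48.3% with 4 or more (40.4 to 51.6%). Clusters with 4 or more wide sites had a median length of 31.9 kb (29.01 to 54.8) and those with none 22.7 kb (17.2 to 29.4). Their median numbers of sites were 13 (10 to 21) and 11 (10 to 12). In clusters with 4 or more wide sites, the stretch between the outermost wide sites took up a median of 70.6% of the cluster (65.95 to 78.8%, n = 15). That many sites span a long stretch under most placements, and no other placement was set beside this value. Neighbours that were both wide formed 28 of the 1176 neighbouring pairs in clusters, or 2.38% (1.59 to 3.42%), and 1.35% of pairs in smaller groups (1.21 to 1.52%). Sites taken one by one were wide in 14.8% of cases in clusters. In groups of 2 or 3, 4 to 6 and 7 to 9 this share was 9.66, 11.7 and 14.4%. A difference in pairs follows in part from these shares, and pairing beyond them was not tested.

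Within counting error, widest sites showed no preferred place along the cluster. In 53 of the 106 clusters, or 50% (40.1 to 59.9%), the centre of the widest site lay between 25 and 75% of the length, where 44.9% of all cluster sites lay (42.2 to 47.7%). Of the 190 wide sites, 99 lay there, or 52.1% (44.8 to 59.4%). With place taken from the order of sites instead of length, the share was 51.9% of widest sites (41.97 to 61.7%) and 53.2% of all cluster sites (50.4 to 55.96%). With the clusters divided into 5 equal parts, 20, 19, 21, 23 and 23 widest sites fell into the parts in order. The same parts held 302, 243, 224, 235 and 278 of all cluster sites, and the counts of widest sites are not scaled to these. Wide sites were 10.6% of the sites in the leading part (7.36 to 14.6%), then 18.5% (13.8 to 23.98%), 18.3% (13.5 to 24.0%), 11.1% (7.36 to 15.8%) and 16.5% (12.4 to 21.4%). This order is along the reference sequence and has no relation to a gene's direction. The centre of a wide site cannot lie within its own half-width of an end, which lowers the share in the outer parts. By order in the row, 25 of the 190 wide sites were the first or last of their cluster, 13.2% (8.70 to 18.8%), against 16.5% of all cluster sites (14.5 to 18.7%). The interval of one overlapped that of the other.

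**Figure D4:**
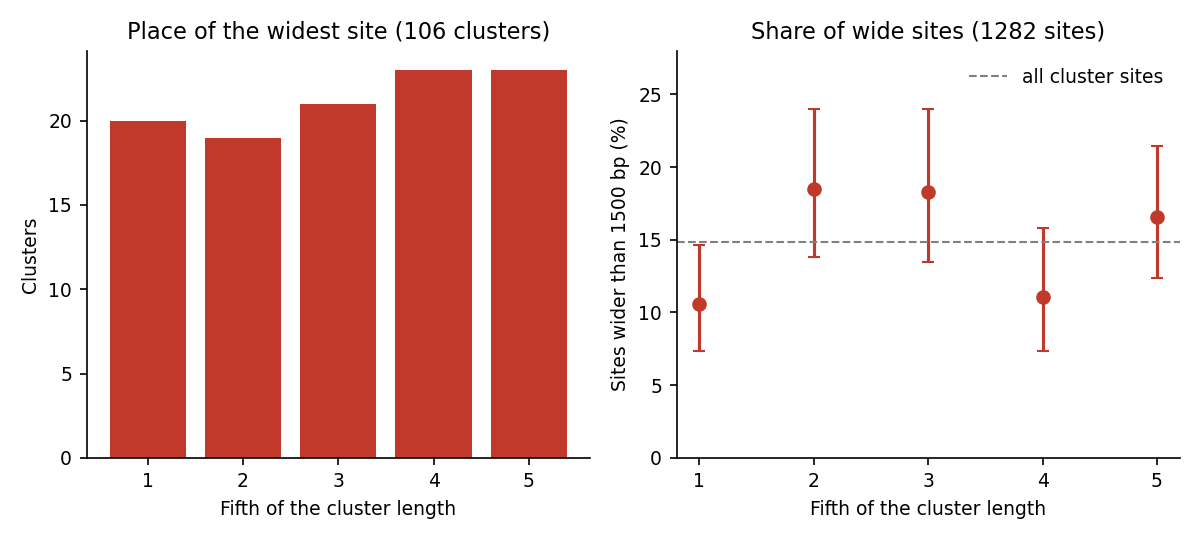
On the left, bars count the 106 clusters by the part of their length, from 1 to 5, that holds the centre of the widest site. On the right, points give the share of sites over 1500 bp in each part, in %, with exact 95% intervals, and the dashed line marks the 14.8% of all cluster sites. The bars lie between 19 and 23, with no peak in the middle, and are not scaled to the number of sites in each part.

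The surroundings of the widest site resembled the rest of the cluster. Its direct neighbours had a median width of 648 bp (536 to 718, n = 197), and all other sites beside the widest had 601 bp (559 to 640, n = 979). Among these neighbours 8.12% were wide (4.71 to 12.9%) and 29.4% narrow (23.2 to 36.3%), against 8.58% (6.90 to 10.5%) and 33.4% (30.4 to 36.5%) of the other sites. Gaps beside the widest site had a median of 1225 bp (803 to 1753) and gaps elsewhere in the clusters 1010 bp (917 to 1131), again with overlapping intervals.

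Part of the site count came from sites that almost touched. In clusters, 52.9% of sites had another site at most 500 bp away (50.1 to 55.6%), as did 30.8% of the others and 31.3% of all autosomal sites kept, a contrast that the rule favours. The others include 17900 sites on their own, which by the rule have no site within 5 kb and lower that share. A share for joined sites outside clusters is not given here. Merging sites at most 500 bp apart turned the 1282 sites into 883 regions, with a median of 8 per cluster and a range of 5 to 16. The number of clusters that still had 10 or more regions was 26, and at 1000 bp it was 7. Among the clusters named above, chr17:35322617-35380496 kept 16 regions at 500 bp, and chr13:51821137-51864245, chr3:87927496-87982540 and chr3:95447672-95502471 kept 15 each. The 10 clusters with the highest covered share fell to between 6 and 8. Whether a caller split single open stretches into several sites was not tested.

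Most tight clusters had more sites around them than the autosomal average, which includes stretches without sites. The surroundings of smaller groups were not counted, so this is not shown to be particular to tight clusters. In the 50 kb on each side there was a median of 9.5 other sites in all (8 to 11), against 2.19 per 100 kb over the autosomes, and 6 clusters had fewer than that. The gap to the next site outside had a median of 10.1 kb (9.11 to 11.8). At 12500 bp, the joining distance common for super-enhancers, the autosomes held 651 clusters of 10 or more sites, and 104 of these, 15.98% (13.2 to 19.02%), contained the 106 tight clusters. The tight cluster took up a median of 51.2% of the longer cluster's length (45.3 to 63.04%), and 21 were not extended. The longer clusters that contained them had a median length of 48.4 kb (41.5 to 56.6, n = 104), against 51.7 kb for all 651. Of the 20 longest at 12500 bp, 6 contained a tight cluster. In the longest of them, of 206 kb with 44 sites, the tight part was the 14.4 kb of chr5:122656787-122671217.

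A set of 3 clusters, picked out after their values were seen, had more than 25 kb without a site on both sides. Beside that of chromosome 18 at 80882648, these were chr18:38735757-38765220 (12 sites, 29.4% covered) and chr5:117935282-117959749. The latter had 13 sites in 24.5 kb, 28.9% covered, between empty stretches of 70.9 and 428 kb. Each of the 3 had a single wide site.

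Chromosomes 5 and 3 held the most tight clusters, with 14 and 13, followed by chromosome 7 with 10. Their sites made up 4.48% of the sites of chromosome 5 (3.83 to 5.21%) and 4.54% of those of chromosome 3 (3.92 to 5.24%), and the lowest share was 0.751% on chromosome 14, which had 1 cluster. The intervals are too narrow because sites of a cluster enter together. Counted as clusters, chromosome 5 had 3.87 per 1000 sites (2.12 to 6.5) and chromosome 3 had 3.25 (1.73 to 5.55), against 2.01 over all autosomes, a whole that includes both. Both were singled out as the highest of 19, and their intervals are not adjusted for that, so neither is set apart from the other autosomes here. On chromosome 3, 8 of the 13 lay between 80 and 110 Mb, and its clusters included 4 of the 10 with the widest sites. That stretch was already known from these data to be dense in sites, which the rule favours. Its share of the chromosome's sites is not given here, so the 8 are a description only. Without chromosome 3, wide sites were 14.2% of cluster sites (12.2 to 16.4%) and 11.2% of the others (10.9 to 11.5%). Copies of each chromosome were not counted in this tumour, and in these counts a gain of DNA and wider opening cannot be told apart.

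**Figure D5:**
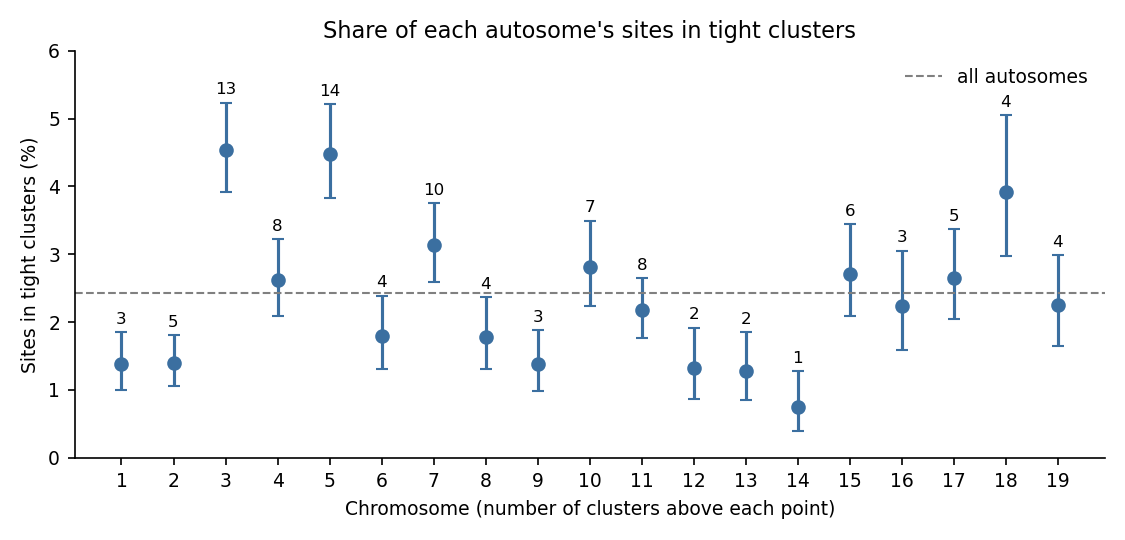
Points give the percentage of each autosome's sites that lie in tight clusters, with exact 95% intervals for sites taken as independent, and the number above each is its count of clusters. Chromosomes 3 and 5 reach 4.54 and 4.48%, and the dashed line is the 2.43% of all autosomes.

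Neighbouring tight clusters on a chromosome were a median of 5690 kb apart, with quartiles of 1508 and 20288 kb. In all, 7 pairs lay within 200 kb. Whether they were closer or farther apart than their number alone would give was not tested. The closest pair was on chromosome 3, where chr3:9537134-9556925 (12 sites) and chr3:9590218-9617692 (14 sites) were 33.3 kb apart. Another pair on that chromosome joined the cluster of 23 sites to chr3:88033179-88051734 (10 sites) across 50.6 kb. These were the only 2 pairs that the distance of 12500 bp united, into clusters of 107 kb and 133 kb, and they are named here after their values were seen. On chromosome 7, the clusters of 16 sites at 108489807 and of 12 sites at 108598596 were 67.6 kb apart and differed in kind, with 29.3 and 55.0% covered and with 1 and 3 wide sites.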

How the data were processed

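Per the submitters' processing notes, reads were handled with BWA 0.6.2 and SAMtools on the mm9 build. The sources used here do not name the peak caller or its threshold, nor say how the input was used. The authors deposited 3 columns (chromosome, start, end), without a score, count or p-value, so depth is unknown. Starts were raised by 1 for printing. Sites were joined at 5 kb, and groups of 10 or more kept. Wide means over 1500 bp and narrow under 400 bp. Intervals are exact binomial, exact Poisson or from order statistics, at 95%. The members, limits and tests were chosen with earlier results of these data known. Clusters named are the 10 with the most sites, the 10 longest, the 10 with the highest covered share and the 10 with the widest site, the shortest and the least covered; others are marked. Gene lists and markers need an mm9 annotation and were not analysed here. Alternatives were other joining distances, minimums, width limits, merging and left-out regions. The joining was tested on simulated data and returned all planted clusters in 50 of 50 lists. Those clusters were planted with the same limit of 5 kb, so this checks the computation and not the choice of rule. Software was scipy 1.17.1, pandas 2.3.3 and numpy 2.4.6 under Python 3.11.15, with matplotlib 3.10.9 for plots.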

Additional observations from a re-analysis of the deposited data

Results flagged for a closer look

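In all, 3 groups of 10 or more sites met the joining distance outside the regions described, and are given as values from data the comparisons did not use. No control list was set beside them. The start of chromosome 11 held 49 sites in 80.3 kb (3023043 to 3103363), with 59.9% covered and 6 wide sites. The start of chromosome 9 held 13 sites in 22.4 kb (3015843 to 3038248), with 27.7% covered and no wide site. On the X chromosome, 11 sites lay in 27.4 kb (166410175 to 166437577), with 36.2% covered and 1 wide site.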

How the results depend on the processing

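Of 91 recomputed values for 9 results, 46 stayed within counting error of the value given (or within 1.5 times for a count) and 45 moved. The limits of the rule set the numbers. At joining distances of 2500, 7500 and 12500 bp there were 14, 268 and 651 clusters with 156, 3435 and 9510 sites (0.296, 6.52 and 18.1% of sites), median lengths of 17.9, 34.5 and 51.7 kb and median covered shares of 55.8, 29.9 and 21.7%. Minimums of 8 and 15 sites gave 258 and 16 clusters with 2557 and 290 sites (4.85 and 0.551%) and median lengths of 21.0 and 37.9 kb. With sites of 300 bp or wider there were 52 clusters with 624 sites (1.40%) and a median length of 28.1 kb. With sites at most 500 bp apart merged there were 26 with 301 (0.688%), a median length of 35.2 kb and 32.8% covered. The share of wide sites in clusters and elsewhere was 17.6 and 13.4% with sites of 300 bp or wider, 26.2 and 19.3% after merging, 30.7 and 27.5% for a limit of 1000 bp and 6.40 and 4.21% for 2000 bp. It was 12.8% (8.01 to 19.1%) and 11.4% at 2500 bp and 15.2% (11.2 to 19.8%) and 11.4% with a minimum of 15 sites, both within counting error, and 14.3 and 10.8% at 12500 bp. The widest site lay between 25 and 75% of the length in 62.5% of clusters with 15 or more sites (35.4 to 84.8%, 16 clusters) and in 65.4% after merging (44.3 to 82.8%, 26 clusters). At 2500 bp, 25% of wide sites were first or last (8.66 to 49.1%). Leaving out chromosome 3 or the cluster of most sites was chosen after seeing the data and moved none of the values recomputed that way. The share of autosomal sites in tight clusters was not among them. Without chromosome 3 it was 2.26%, below the interval of 2.30 to 2.57% given for all autosomes. No signal was listed, so no stricter threshold on it was run. No paired analysis was possible because there is 1 library.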
